A study of Mus musculus with 18 samples.

Results

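The classical MHC class I pathway was followed through 10 mouse genes that carry its heavy chains, its light chain, its peptide supply and its transactivator. The members were H2-K1, H2-D1, B2m, Tap1, Tap2, Tapbp, Psmb8, Psmb9, Psmb10 and Nlrc5, found by symbol. All 10 were listed in both deposited tables, among 14423 genes of the bone marrow table and 21830 genes of the spleen table. RNA was sequenced from the 3' ends of transcripts, in 18 libraries of single-cell suspensions from C57BL/6 mice. In bone marrow, 4 Cgas-/- libraries were set against 4 dKO libraries. The dKO mice are Trex1-/-;Sting1gt/gt, so they are without the exonuclease TREX1, which clears DNA from the cytosol, and have the goldenticket allele of STING, the adaptor that signals for the DNA sensor cGAS. Cgas-/- mice lack that sensor and carry neither of the other alleles, as far as the labels state. In spleen, 5 libraries of recipients of Cgas-/- marrow (Cgas-/- BM Tx) were set against 5 of recipients of dKO marrow (dKO BM Tx), 12 weeks after transplantation. Every recipient was a lethally irradiated dKO mouse, so both spleen groups share the dKO background in whatever host cells remained, and no library of an unaltered mouse is part of either comparison. The labels give no ages and do not say that each library is a separate mouse, so the p-values rest on the variation among these libraries, part or all of which could be technical.

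Class I molecules show peptides from inside the cell to CD8 T cells. The proteasome cuts proteins into peptides, and the TAP1-TAP2 transporter moves these into the endoplasmic reticulum. There tapasin, encoded by Tapbp, holds the transporter beside the empty complex of a heavy chain and beta-2-microglobulin until a peptide fits. The subunits PSMB8, PSMB9 and PSMB10 replace the constitutive catalytic subunits and so form the immunoproteasome. NLRC5 is a nuclear protein that switches on class I promoters together with factors bound to the SXY motif. Interferons induce most of these genes, and hematopoietic cells express them at a high basal level. C57BL/6 mice carry the H2b haplotype, with the heavy chains Kb and Db.

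Of the 10 genes, 7 lie on chromosome 17 within the MHC, B2m lies on chromosome 2, and Psmb10 and Nlrc5 lie on chromosome 8 (GRCm38, GENCODE M21). From the Tapbp start to the H2-D1 end the 7 genes span 1.35 Mb, and Psmb9, Tap1, Psmb8 and Tap2 stand next to each other within 34.3 kb. In GRCm38, Tapbp (chr17:33915899-33929292), Tap1 (chr17:34187553-34197225), Psmb8 (chr17:34197721-34201454), Tap2 (chr17:34203527-34216321) and H2-D1 (chr17:35262730-35267499) are on the plus strand. H2-K1 (chr17:33996017-34000347) and Psmb9 (chr17:34181987-34187764) are on the minus strand. B2m is at chr2:122147686-122153083 on the plus strand, Nlrc5 at chr8:94434356-94527272 on the plus strand and Psmb10 at chr8:105935735-105938444 on the minus strand. Psmb9 and Tap1 are head to head and overlap by 212 bases at their starts. None of the members lies on chromosome 9, where Trex1 and Cgas both lie.

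Promoter windows were read from RefSeq (GRCm38.p6), 250 bases before to 50 bases after each start, and 8 of the 10 members matched. The windows of both heavy chains, of B2m and of Tap1 are shown because they carry the elements by which this pathway is usually described. Capitals mark the motifs searched, on either strand: GAAANNGAA (an interferon-stimulated response element), TTCNNNGAA (a GAS element), GGGGATTCC (kappa B), TGACG (the core of a CRE, as in the X2 box of SXY) and CCAAT (as in its Y box). H2-K1 is read from chr17:34000298-34000597 on the minus strand, H2-D1 from chr17:35262844-35263143 on the plus strand, B2m from chr2:122147437-122147736 on the plus strand and Tap1 from chr17:34187306-34187605 on the plus strand.
H2-K1: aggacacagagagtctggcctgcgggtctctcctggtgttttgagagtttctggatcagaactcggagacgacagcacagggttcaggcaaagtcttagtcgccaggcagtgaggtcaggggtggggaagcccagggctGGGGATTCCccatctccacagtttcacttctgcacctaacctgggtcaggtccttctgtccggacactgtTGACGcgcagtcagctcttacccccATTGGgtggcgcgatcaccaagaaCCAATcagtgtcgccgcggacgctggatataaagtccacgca
H2-D1: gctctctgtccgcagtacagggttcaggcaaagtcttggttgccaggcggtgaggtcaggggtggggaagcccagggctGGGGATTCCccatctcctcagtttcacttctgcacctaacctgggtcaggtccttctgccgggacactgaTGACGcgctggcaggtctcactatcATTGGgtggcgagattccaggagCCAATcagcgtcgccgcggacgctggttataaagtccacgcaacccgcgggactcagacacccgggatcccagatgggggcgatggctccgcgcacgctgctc
B2m: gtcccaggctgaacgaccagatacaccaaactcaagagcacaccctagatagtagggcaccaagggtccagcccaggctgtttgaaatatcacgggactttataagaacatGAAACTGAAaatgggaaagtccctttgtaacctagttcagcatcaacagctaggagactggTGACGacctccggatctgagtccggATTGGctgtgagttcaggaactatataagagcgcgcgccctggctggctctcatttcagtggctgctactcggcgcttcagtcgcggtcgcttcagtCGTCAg
Tap1: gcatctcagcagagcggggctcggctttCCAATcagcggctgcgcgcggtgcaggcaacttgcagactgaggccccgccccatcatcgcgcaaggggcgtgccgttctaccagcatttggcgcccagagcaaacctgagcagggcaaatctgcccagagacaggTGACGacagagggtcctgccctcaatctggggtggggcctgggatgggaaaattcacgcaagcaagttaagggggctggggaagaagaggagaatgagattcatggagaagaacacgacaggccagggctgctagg
The H2-K1 and H2-D1 windows were 88.3% identical over 239 aligned bases, and both hold the kappa B letters followed by TGACG and then CCAAT. In H2-K1 the kappa B match starts 111 bases before the annotated start and TGACG 41 bases before it. In H2-D1 they start 171 and 101 bases before it. These distances depend on where each start is annotated. The plus-strand CCAAT letters begin 8 bases after that of H2-K1 and 53 bases before that of H2-D1. B2m alone among the 8 windows holds the GAAANNGAA letters, 139 bases before its start. It has TGACG at 78 bases and CCAAT, on the minus strand, at 53 bases before that start. GAAANNGAA is only 1 spelling of the interferon-stimulated response element, and other spellings were not searched. The windows of H2-K1, H2-D1 and the other members may therefore still hold such an element. The Tap1 window shares 275 bases with that of Psmb9, which is transcribed the other way. GAAANNGAA is in 8.57% of 27025 RefSeq mouse promoter windows of the same length, TTCNNNGAA in 8.47%, GGGGATTCC in 0.259%, TGACG in 21.0% and CCAAT in 37.9%. Among the 8 members they were found in 1, 1, 2, 5 and 6 windows, in that order, and the GAS letters were those of Psmb8. The TGACG and CCAAT matches of Tap1 and Psmb9 are the same bases read on opposite strands, so those sites enter the counts for both genes. Psmb10 held none of the 5 motifs in this window. A match is a description of the letters and not of a bound site.

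**Figure D1:**
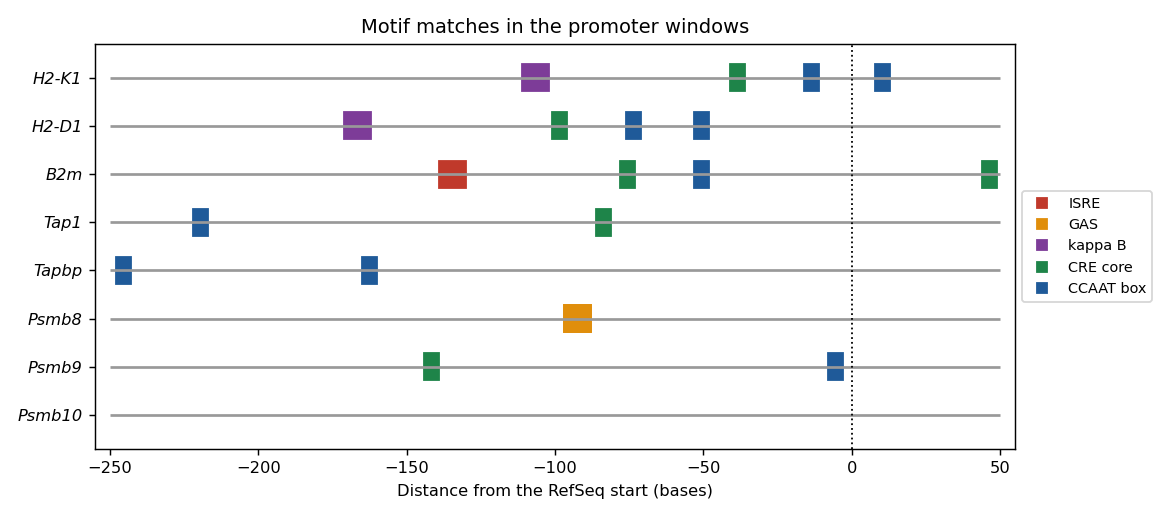
Position of each motif match (x axis, bases from the annotated start) in the RefSeq promoter windows of the 8 members with a window (rows), coloured by motif. The heavy chains H2-K1 and H2-D1 carry the same order of kappa B, CRE core and CCAAT letters. B2m is the one row with the GAAANNGAA letters, and other spellings of the interferon-stimulated response element were not searched.

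The deposited tables give, for each gene, a mean normalized count over the libraries of a comparison, a DESeq2 log2 fold change with its standard error, and p-values. They give no value per library, so the level of each group was computed from the mean and the fold change, taking groups as equal in size, and no SD or range of libraries can be stated. Sequencing depth is unknown for the same reason. Positive fold changes mean higher in Cgas-/- marrow, or in spleens of recipients of Cgas-/- marrow, than in the dKO groups. In bone marrow the authors' deposited table lists Trex1 at 1.45 ± 0.178 (SE; DESeq2 adjusted p = 7.93e-13) and Cgas at -1.13 ± 0.155 (DESeq2 adjusted p = 6.99e-10). In spleen it lists Trex1 at 2.71 ± 0.199 (DESeq2 adjusted p = 8.48e-39) and Cgas, under its older symbol Mb21d1, at -0.92 ± 0.217 (DESeq2 adjusted p = 0.0176). Tmem173, the gene of STING, was listed at -0.13 ± 0.176 in bone marrow (DESeq2 adjusted p = 0.937) and -0.02 ± 0.0751 in spleen, by the authors' deposited tables. A 3' tag outside a deleted part, or a point mutation, would leave these counts as they are, so Tmem173 checks nothing. By the summed means of the authors' deposited tables, neutrophil markers took 0.634% of the spleen signal and 11.3% of the bone marrow signal, and B cell markers 0.592% of the spleen signal and 0.0827% of the bone marrow signal. In such bulk samples, fewer cells of a type and less RNA per cell cannot be told apart.

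In bone marrow, no member passed an adjusted p of 0.05. B2m was nearest to it, with a level below that of dKO marrow. Across the 10 members, 8 log2 fold changes were below 0 and 2 were above it, with a median of -0.14, against a median of -0.00 for all genes of the authors' deposited table. Over the 8766 genes at or above the level of the lowest member, 51.5% were below 0, with a median of -0.01. By the authors' DESeq2 test with Benjamini-Hochberg adjustment, 0.534% of all genes of the table passed, 0.361% lower and 0.173% higher in Cgas-/- marrow, against 0 of 10 members. At an unadjusted p under 0.05, 4.65% of all genes were lower and 4.19% higher, against 2 members lower (B2m and H2-D1) and 0 higher.

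B2m encodes beta-2-microglobulin, the light chain that every class I heavy chain needs to reach the cell surface. Its level was 7124 in Cgas-/- marrow and 8941 in dKO marrow, from the mean and fold change of the authors' deposited table. The fold was 0.797, a log2 fold change of -0.33 ± 0.0979 (95% interval -0.52 to -0.14) with p = 0.000814 and adjusted p = 0.0982 by DESeq2 in the authors' deposited table. B2m overlaps Patl2, on the opposite strand, over its whole length, and the strand used in counting is not given in the sources used here. Opposite-strand genes also cover Psmb10 over its whole length (Gm16156) and the 3' end of Psmb8 (Gm20496). Tap2 is overlapped by such genes as well (Gm20496 and Gm15821), but not at its 3' end. H2-D1, the Db heavy chain, was at 9193 in Cgas-/- marrow and 10228 in dKO marrow by the authors' deposited table. Its log2 fold change was -0.15 ± 0.0750 (95% interval -0.30 to -0.01), with p = 0.0401 and adjusted p = 0.523 by DESeq2 in the authors' deposited table. H2-K1, the Kb heavy chain, was at 6056 in Cgas-/- marrow and 6655 in dKO marrow, with -0.14 ± 0.198 and adjusted p = 0.938 by DESeq2 in the authors' deposited table. The standard error of H2-K1 was 2.56 times the median of 169 genes of like level (within 1.5-fold of its mean), so its 95% interval, -0.52 to 0.25, holds both no difference and the B2m estimate. The last 300 bases of H2-K1 and H2-D1 were 77% identical over 252 aligned bases. The longest match of the H2-K1 end to any part of an H2-D1 transcript was 91.0% identical over 188 bases. Some tags may therefore not separate the 2 genes. The H2-D1 end also matched some part of transcripts of 206 other genes at 90% identity or more over at least 100 bases. Whether these matches lie at 3' ends was not recorded, so the H2-D1 value is uncertain to an unknown extent. By the same cut-offs the H2-K1 end matched transcripts of 1 other gene, H2-D1, so the H2-K1 value is uncertain with respect to that gene.

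The transporter subunits are Tap1 and Tap2, and neither passed the test in bone marrow. Tap1 was at 456 in Cgas-/- marrow and 512 in dKO marrow, with a log2 fold change of -0.17 ± 0.135 and adjusted p = 0.833 by DESeq2 in the authors' deposited table. Tap2 had an estimate above 0, at 443 in Cgas-/- marrow and 273 in dKO marrow by the same authors' deposited table. This is 1.62-fold, or 0.70 ± 0.404 with DESeq2 adjusted p = 0.665, the widest member estimate in the authors' deposited table. Its standard error was 3.20 times the median of 2502 genes of like level and lay at their percentile 99.8, and the 95% interval runs from a fold of 0.937 to 2.81. Tapbp, the tapasin gene, was at 1278 in Cgas-/- marrow and 1318 in dKO marrow, with -0.04 ± 0.0845 and adjusted p = 0.964 by DESeq2 in the authors' deposited table. Its 95% interval, -0.21 to 0.12, is the narrowest of the genes of the transporter complex.

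None of the immunoproteasome genes passed the test in bone marrow, and Psmb10 had the one estimate larger than its standard error. Psmb8 was at 970 in Cgas-/- marrow and 1042 in dKO marrow, with a log2 fold change of -0.10 ± 0.117 and adjusted p = 0.911 by DESeq2 in the authors' deposited table. Psmb9 was at 819 in Cgas-/- marrow and 750 in dKO marrow, with 0.13 ± 0.142 and adjusted p = 0.911 by DESeq2 in the authors' deposited table. Psmb10 was at 338 in Cgas-/- marrow and 373 in dKO marrow, with -0.14 ± 0.132 and adjusted p = 0.879 by DESeq2 in the authors' deposited table. Their 95% intervals all hold 0, with bounds no further than -0.40 and 0.41. The constitutive subunits that they replace stood at -0.08 ± 0.0936 for Psmb5, 0.02 ± 0.101 for Psmb6 and 0.17 ± 0.0968 for Psmb7 in the authors' deposited table, and none passed DESeq2's adjusted test. Tags are counted at the 3' end and do not scale with length, but the rules of counting are not stated, so a ratio of paired subunits is given as a description. On the mean normalized count of the authors' deposited table, Psmb8 stood at 1.61 times Psmb5, Psmb9 at 1.01 times Psmb6 and Psmb10 at 0.550 times Psmb7 in bone marrow. Nlrc5, the transactivator, had the lowest level of the members, 69.3 in Cgas-/- marrow and 86.0 in dKO marrow by the authors' deposited table. Its log2 fold change was -0.31 ± 0.276 (95% interval -0.85 to 0.23), with adjusted p = 0.867 by DESeq2 in the authors' deposited table.

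In spleens 12 weeks after transplantation, no member passed either the adjusted or the unadjusted threshold. All 10 log2 fold changes were above 0, between 0.03 and 0.49, with a median of 0.10, against -0.03 for all genes of the authors' deposited table. Genes at these levels also leaned upward: of the 3713 at or above the level of the lowest member, 58.6% were above 0, with a median of 0.02. By the authors' DESeq2 test with Benjamini-Hochberg adjustment, 0.133% of all genes passed, 0.0779% lower and 0.0550% higher in recipients of Cgas-/- marrow, against 0 of 10 members. At an unadjusted p under 0.05, 1.85% of all genes were lower and 1.17% higher, against 0 members in either direction. Every member interval holds 0, and 8 of the 10 lie within 0.5 of it on the log2 scale, against 6 of 10 in bone marrow.

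H2-K1 had the highest level of the members in spleen and stood 12th among all genes of the authors' deposited table. It was at 16950 in recipients of Cgas-/- marrow and 15831 in recipients of dKO marrow, with 0.10 ± 0.0724 (95% interval -0.04 to 0.24) and p = 0.174 in the authors' deposited table. H2-D1 was at 8910 in recipients of Cgas-/- marrow and 8715 in recipients of dKO marrow, with 0.03 ± 0.0618 and p = 0.605 in the authors' deposited table. The H2-D1 interval was narrow, -0.09 to 0.15. B2m was at 12845 in recipients of Cgas-/- marrow and 11544 in recipients of dKO marrow, with 0.15 ± 0.0842 (95% interval -0.01 to 0.32) and p = 0.0673 in the authors' deposited table. Tap2 was again the widest, at 1927 in recipients of Cgas-/- marrow and 1369 in recipients of dKO marrow by the authors' deposited table. Its log2 fold change was 0.49 ± 0.313 (95% interval -0.12 to 1.11) with p = 0.114 in the authors' deposited table, and its standard error lay at percentile 98.4 of genes of like level. Tap1 was at 2003 in recipients of Cgas-/- marrow and 1796 in recipients of dKO marrow, with 0.16 ± 0.120 and p = 0.192 in the authors' deposited table. Tapbp was at 1692 in recipients of Cgas-/- marrow and 1602 in recipients of dKO marrow, with 0.08 ± 0.0716 and p = 0.271 in the authors' deposited table.

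**Figure D2:**
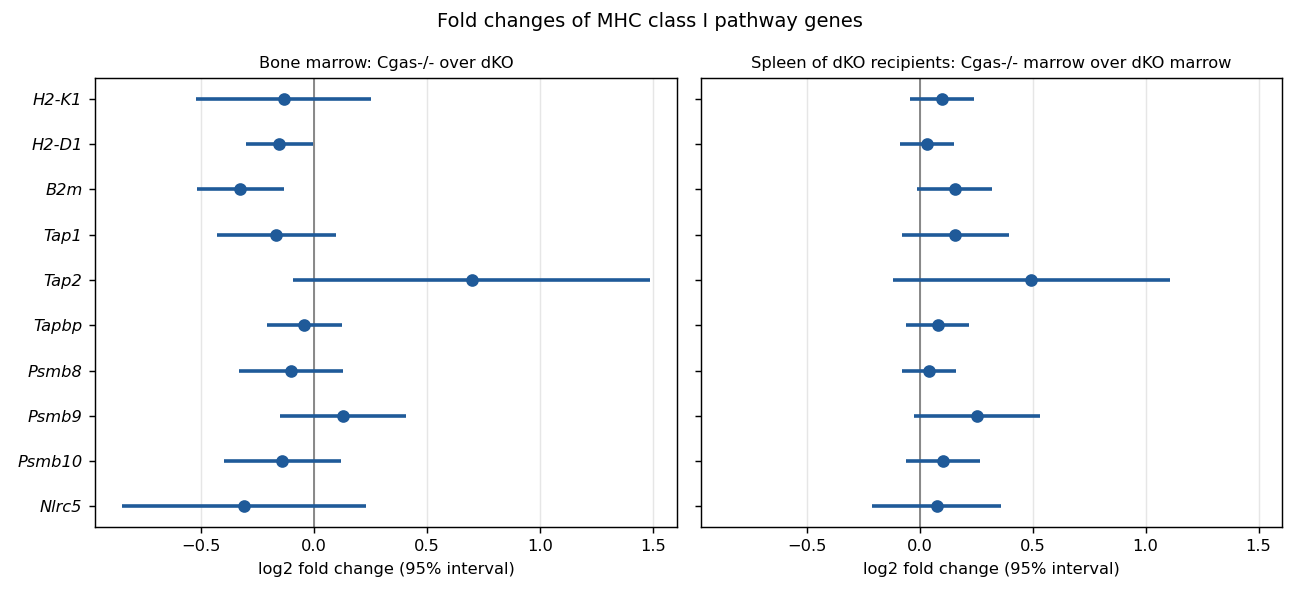
DESeq2 log2 fold change of each member (x axis, points) with its 95% interval (bars) in bone marrow (Cgas-/- over dKO) and in spleen (recipients of Cgas-/- over recipients of dKO marrow). The bone marrow intervals of B2m and H2-D1 lie below 0, and all 10 spleen intervals hold 0.

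Psmb9 had the largest immunoproteasome estimate in spleen, 0.25 ± 0.143 (95% interval -0.03 to 0.53) with p = 0.0770 in the authors' deposited table. Its level was 1604 in recipients of Cgas-/- marrow and 1346 in recipients of dKO marrow. Psmb8 was at 2830 in recipients of Cgas-/- marrow and 2750 in recipients of dKO marrow, with 0.04 ± 0.0617 and p = 0.504 in the authors' deposited table. Psmb10 was at 989 in recipients of Cgas-/- marrow and 921 in recipients of dKO marrow, with 0.10 ± 0.0845 and p = 0.223 in the authors' deposited table. Nlrc5 was at 277 in recipients of Cgas-/- marrow and 263 in recipients of dKO marrow, with 0.07 ± 0.146 and p = 0.608 in the authors' deposited table. By DESeq2 the adjusted p was 0.999997 for each of the 10 members, as the authors' deposited table gives it. In the authors' deposited spleen table the mean of Psmb8 was 47.1 times that of Psmb5, that of Psmb9 2.07 times that of Psmb6 and that of Psmb10 1.64 times that of Psmb7. Psmb5 is low in this table, with a mean of 59.3 against 624 in bone marrow, so the Psmb8 to Psmb5 ratio rests on that value. The 2 tables do not use the same gene symbols throughout, since the gene of cGAS is Cgas in bone marrow and Mb21d1 in spleen. Their lowest listed mean also differs, at 6.46 in bone marrow and 0.239 in spleen. Whether they otherwise share an annotation and a treatment of ambiguous reads is not known, so the ratios are not compared between tissues.

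**Figure D3:**
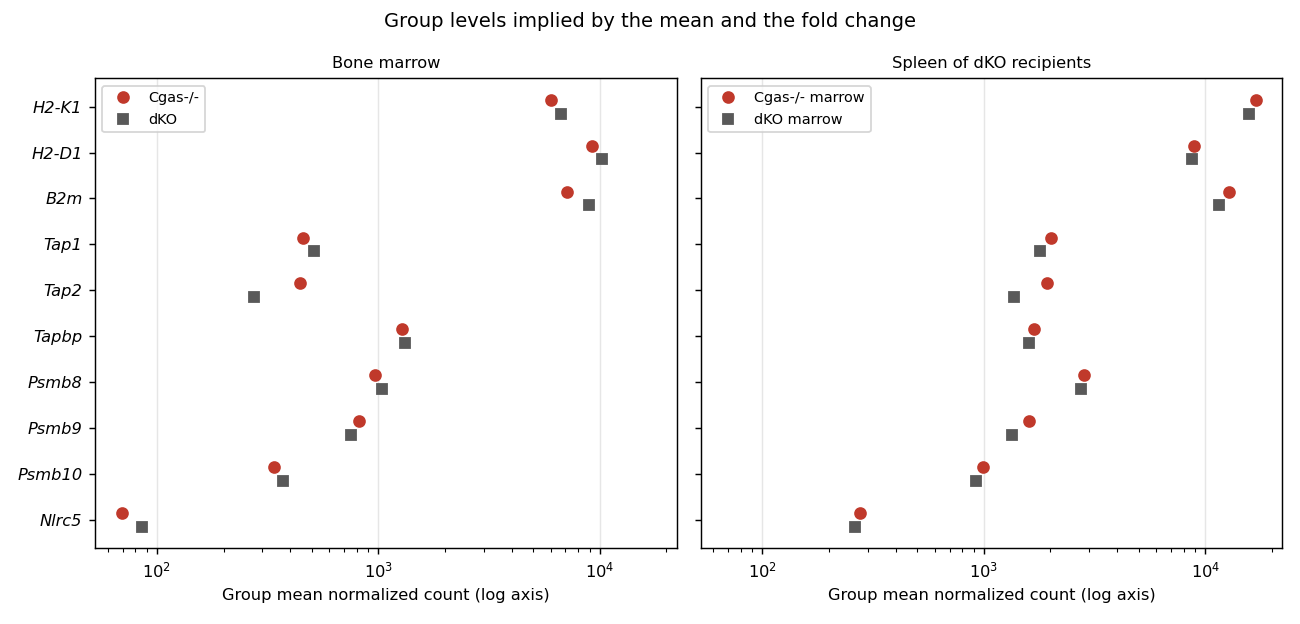
Normalized count (x axis, log scale) of each member (rows) implied for the Cgas-/- group and the dKO group of each tissue from the deposited mean and fold change, with no error because values per library were not used. H2-K1, H2-D1 and B2m are the highest members and Nlrc5 the lowest in both tissues.

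Summed over the 10 members, the level was 26748 in Cgas-/- marrow and 30180 in dKO marrow, a ratio of 0.886, by the authors' deposited table. In spleen the sum was 50026 in recipients of Cgas-/- marrow and 46136 in recipients of dKO marrow, a ratio of 1.08, by the authors' deposited table. The members made up 1.05% of the summed means in spleen and 0.293% in bone marrow. These sums are set mainly by H2-K1, H2-D1 and B2m and carry no error of their own.

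**Figure D4:**
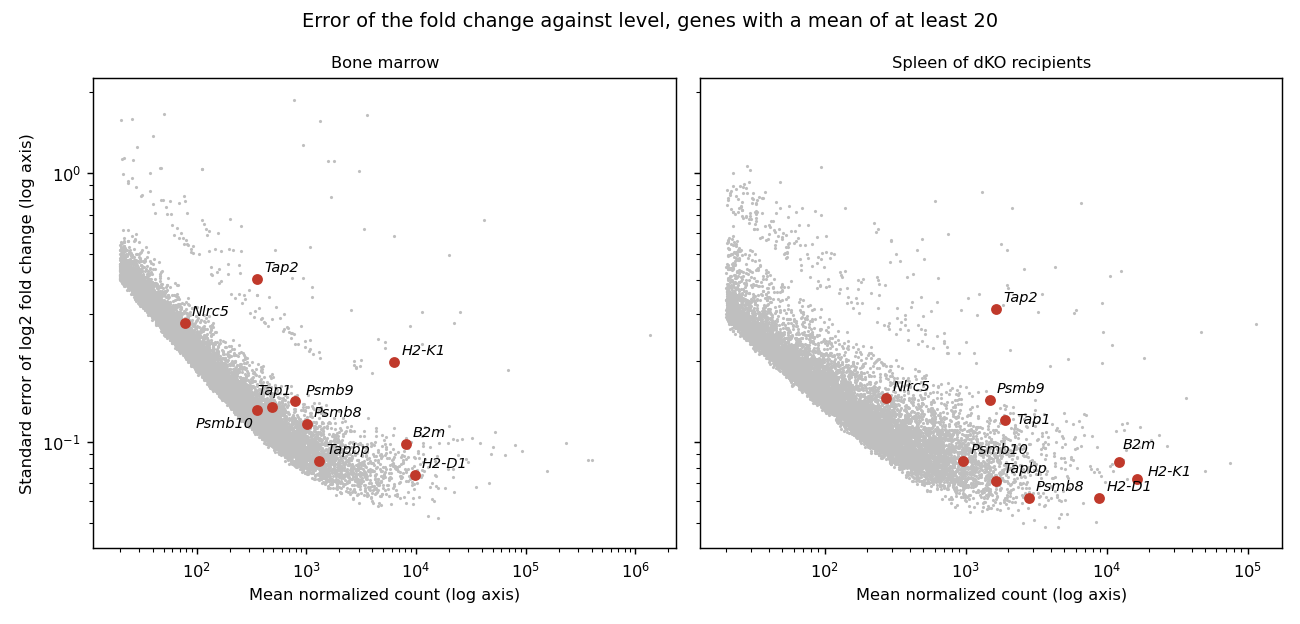
Standard error of the log2 fold change (y axis, log scale) against mean normalized count (x axis, log scale) for genes with a mean of at least 20 in each table (grey) and the members (red and named). Tap2 stands above most genes of its level in both tables, as does H2-K1 in bone marrow.

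The estimates of the 2 tissues were compared directly over 13776 genes listed in both tables, with a two-sided z test of spleen minus bone marrow and Benjamini-Hochberg adjustment. The comparisons share no library. Genes were matched by symbol, and the symbols of the 2 tables differ in part. The difference was above 0 for 9 members and below it for Tap2, with a median of 0.21. Among all genes compared, 47.5% were above 0, with a median of -0.01. Of the 9999 genes with a mean of at least 20 in both tissues, 50.6% were above 0. The adjusted threshold was passed by 0 of 10 members, against 0.0581% of all genes, and the unadjusted one, upward, by 1 of 10, against 2.21% of all genes. That member was B2m, at 0.15 in spleen and -0.33 in bone marrow, a difference of 0.48 ± 0.129 (SE; 95% interval 0.23 to 0.74) with a Benjamini-Hochberg adjusted p = 0.146. H2-D1 had a difference of 0.19 ± 0.0971 and Tap1 one of 0.33 ± 0.181, and both intervals hold 0.

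Genes that work beside the members were read from lists. Of 18 other class I heavy chains, which include the nonclassical Qa and T-region genes, 13 were listed in bone marrow, 3 above and 10 below 0 with a median of -0.07, and none passed DESeq2's adjusted test. In spleen 16 were listed, 12 above and 4 below 0 with a median of 0.11, and again none passed. Before adjustment 3 were under 0.05, all above 0, where 1.17% of all genes were. The 2 with the smallest p were H2-T22 (0.40 ± 0.153, p = 0.00892) and Cd1d1 (0.27 ± 0.117, p = 0.0209), which presents lipids, by the DESeq2 values of the authors' deposited spleen table. H2-T23, the Qa-1 heavy chain, stood at 0.92 ± 0.597 in bone marrow in the authors' deposited table, with an error as wide for its level as that of Tap2.

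The 14 loading chaperones and peptide-trimming enzymes had medians of -0.01 in bone marrow, with 7 above and 7 below 0, and 0.03 in spleen, with 8 above and 6 below 0. Within them Ide, an insulin-degrading peptidase, fell in recipients of Cgas-/- marrow by 0.39 ± 0.0941 on the log2 scale (adjusted p = 0.0317 by DESeq2 in the authors' deposited table). Pdia3, the ERp57 disulfide isomerase of the loading complex, was at 0.25 ± 0.109 (p = 0.0245 before adjustment) in the authors' deposited spleen table from DESeq2. The 9 PA28 and assembly genes had medians of 0.04 in bone marrow and 0.05 in spleen, and none passed DESeq2's adjusted test in either tissue. The 11 other 20S core subunits had medians of -0.03 in bone marrow and 0.07 in spleen, with none past it either.

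Of the 16 SXY factors and other regulators of class I transcription, 9 were above and 7 below 0 in bone marrow and 8 above and 8 below in spleen, and none passed DESeq2's adjusted test. Irf8, an interferon regulatory factor of myeloid and B cells, was at 0.23 ± 0.0741 in bone marrow (p = 0.00228, adjusted p = 0.173 by DESeq2 in the authors' deposited table). The 13 class II pathway genes had medians of -0.03 in bone marrow and 0.04 in spleen, with none past the adjusted test. Of 13 receptors and checkpoint genes that read class I, 7 were above and 6 below 0 in bone marrow, 4 above and 9 below in spleen, and none passed.

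Type I interferon-stimulated genes are the usual companions of this pathway. In bone marrow, 28 of 30 were below 0 with a median of -0.49, and 6 fell by DESeq2's adjusted test in the authors' deposited table. Among all genes of that table, 50.5% were below 0 and 0.361% fell by the same test. Oas2, a sensor enzyme of double-stranded RNA, fell by 1.20 ± 0.253 on the log2 scale (DESeq2 adjusted p = 0.00142), from the authors' deposited table. Rtp4, an interferon-induced chaperone, fell by 0.92 ± 0.195 (DESeq2 adjusted p = 0.00177), from the same authors' deposited table. The median of the 10 members in the same comparison was -0.14. The 19 genes of the interferon-gamma-induced GTPase and chemokine list had 16 below 0, with a median of -0.27, and none passed the adjusted test. In spleen, 26 of the 30 type I genes were above 0 with a median of 0.14 and none passed; Zbp1, a sensor of Z-form nucleic acids, had the smallest p, 0.00928 before adjustment, at 0.39 ± 0.151 in the authors' deposited DESeq2 table. Among all genes of the spleen table, 45.0% were above 0, and 52.0% of those with a mean of at least 20. No test compares these lists with the members.

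**Figure D5:**
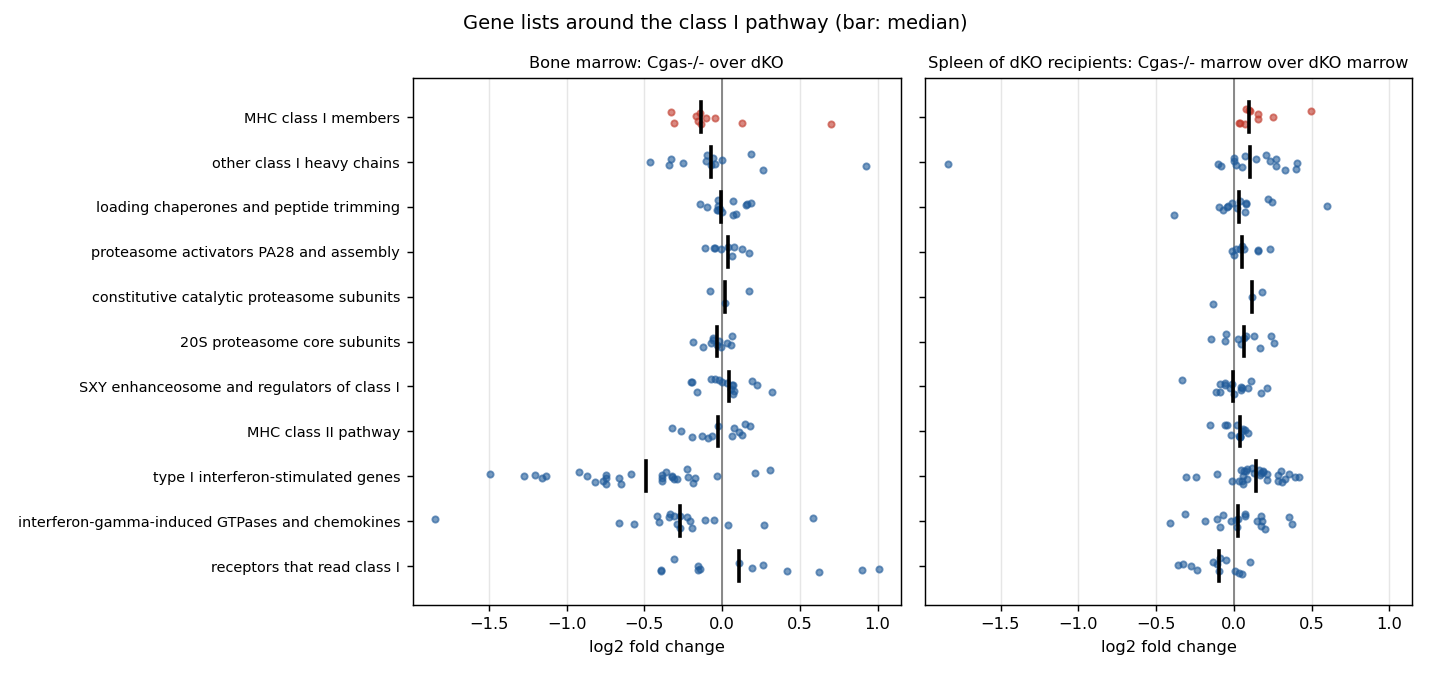
Log2 fold change of every listed gene (points; x axis) by gene list (rows) in each tissue, with the median of each list marked. The type I interferon-stimulated genes have medians of -0.49 in bone marrow and 0.14 in spleen, against -0.14 and 0.10 for the members.

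Markers of several cell types were read in the same comparisons, and some passed the adjusted test in bone marrow and none in spleen. In bone marrow, 5 of 14 monocyte markers fell by DESeq2's adjusted test, 12 of 14 being below 0, with a median of -0.34. Their summed level was 78034 in Cgas-/- marrow and 108636 in dKO marrow by the authors' deposited table. That sum is set mainly by Lyz2, at 52774 in Cgas-/- marrow and 77882 in dKO marrow in the authors' deposited table. Of 19 erythroid markers listed, 17 were above 0 and 1, Hbb-bt, passed the adjusted test, and their summed level was 68205 in Cgas-/- marrow and 38361 in dKO marrow by the authors' deposited table. The median of the erythroid list was 0.33, and its sum is set mainly by globins, with Hba-a2 alone at 29256 in Cgas-/- marrow and 15356 in dKO marrow in the authors' deposited table. Dendritic cell markers had 11 of 12 above 0 with a median of 0.14, and Flt3, a receptor of progenitors and dendritic cells, passed at 0.72 ± 0.153 (adjusted p = 0.00177 by DESeq2 in the authors' deposited table). B cell markers had 12 of 16 above 0 with a median of 0.07, and Dntt, the terminal transferase of lymphoid progenitors, passed at 0.64 ± 0.166 (adjusted p = 0.0311 by DESeq2 in the authors' deposited table). Neutrophil markers had 17 of 18 below 0 with a median of -0.10 and none past the adjusted test. In spleen, all 19 erythroid markers listed were below 0, none past the adjusted test, with a summed level of 17907 in recipients of Cgas-/- marrow and 26493 in recipients of dKO marrow by the authors' deposited table. Neutrophil markers had 16 of 18 below 0 with a median of -0.39, and macrophage markers 11 of 12 below 0 with a median of -0.18. The 16 T cell markers were all above 0, with a median of 0.10. Of 20 immediate early genes, 19 were above 0 in spleen and Fos rose by 1.09 on the log2 scale (adjusted p = 8.30e-09 by DESeq2 in the authors' deposited table). The part of the listed markers in the member values was not tested. A t distribution, of 6 degrees of freedom in bone marrow and 8 in spleen, was also used in place of DESeq2's normal one. Under it the adjusted p was 0.902 for Lyz2, of the monocyte list, and 0.986 for Ly6c2, Oas2, Rtp4, Hbb-bt, Flt3 and Dntt. It was 0.999997 for Ide and 0.184 for Fos, and the targeted genes Trex1 and Cgas lost their bone marrow calls as well.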

How the data were processed

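Libraries were made from the RNA of bone marrow and spleen cell suspensions with the QuantSeq 3' forward kit, per the labels' protocols. Tools named in the submitters' processing notes were DESeq2, Partek, STAR 2.6.1 and bcl2fastq 1.8.4, with the build mm10. For the counting tool, its strand setting, the annotation, the gene filter and the version of the authors' DESeq2, nothing is stated in the sources used here. The authors deposited 1 DESeq2 table per tissue. Its mean normalized count is a signal averaged over the libraries of the comparison, per the file headers. Its log2 fold change, standard error, the Wald score, the p-value and the ranking score are also the authors', per the file headers. Benjamini-Hochberg adjustment ran over all genes of a table, and recomputing the Wald score, p-values and ranking gave the deposited columns. No value per library was used, so depth is unknown and neither a count test nor a left-out library could be had.

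Libraries were grouped by their labels, and the direction of the fold changes was taken from the table names and from Cgas and Trex1. From the tables were computed group levels (equal group sizes assumed), 95% intervals (1.96 standard errors), percentiles of standard errors among genes within 1.5-fold in mean, and the z test between tissues, with Python 3.11.15, pandas 2.3.3, numpy 2.4.6 and scipy 1.17.1. Genes named were the members, the targeted genes, Psmb5, Psmb6 and Psmb7, and the 2 genes of each list with the smallest p in a tissue; other genes named beside a count were chosen after their values were seen. The members and lists were chosen with earlier results of these data known. The last 300 bases of member transcripts were searched against whole transcripts with blastn 2.17.0. The ends and the promoter windows of H2-K1 and H2-D1 were aligned with Biopython 1.88. The steps across genes were tested on simulated data. Alternatives tried were a threshold of 0.1, means of at least 20 or 100, a t distribution, centring on the median gene, and medians without some members.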

Additional observations from a re-analysis of the deposited data

Results flagged for a closer look

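No member was singled out by a difference between tissues past the adjusted threshold. Of the other genes named, 3 were, by the z test of spleen minus bone marrow with Benjamini-Hochberg adjustment over all genes listed in both tables. Trex1, a targeted gene, differed by 1.26 ± 0.267 on the log2 scale (SE; adjusted p = 0.00432), higher in the Cgas-/- group in both tissues and more so in spleen. Rtp4 differed by 1.20 ± 0.262 (adjusted p = 0.00794), with 0.29 in spleen and -0.92 in bone marrow in the authors' deposited tables. Fos differed by 1.20 ± 0.236 (adjusted p = 0.00101), with 1.09 in spleen and -0.11 in bone marrow in the authors' deposited tables. Mb21d1 and Cgas are 1 gene under 2 symbols and were not compared between tissues.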

How the results depend on the processing

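At an adjusted p threshold of 0.1 in place of 0.05, 1 member was called in bone marrow, B2m at 0.0982, and none in spleen or in the difference between tissues. Across its alternatives the adjusted p of B2m ranged from 0.0765 to 0.986 in bone marrow and from 0.119 to 0.999 in the difference. The median of the members stayed between -0.14 and -0.12 in bone marrow and between 0.09 and 0.13 in spleen, with H2-K1 and H2-D1, Tap2 or B2m left out (the last 2 chosen after seeing the data), weighted by precision or centred on the median gene. Of 562 values recomputed, 536 were of single genes and the rest were counts or medians of the members. Unchanged in direction and, for genes, in side of the threshold were 542. Most of these were of genes with no call to lose, so their number says little about the calls. A call was lost in 13, all under the t distribution. Of the calls tried under it, only Trex1 in spleen stayed (adjusted p = 0.00348). Gains were 7, of which 6 were of single genes and the other was the member count through B2m, and 0 changed sign. A t distribution in place of the normal, with 6 degrees of freedom in bone marrow and 8 in spleen, gave larger adjusted p, 0.986 for Oas2 and Rtp4 and 0.999997 for Ide, so those calls rest on DESeq2's normal reference. It also gave 0.438 for Trex1 and 0.570 for Cgas in bone marrow, 0.184 for Fos and 0.999997 for Mb21d1 in spleen, and 0.629 for the Trex1 difference between tissues. Because calls of the targeted genes Trex1 and Cgas were lost too, a loss under the t distribution cannot by itself mark a call as weak. No paired analysis was possible because the tables hold no value per library, and leaving out each replicate was not run for the same reason. What depth limits cannot be stated, since library totals were not used here.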

Other observations

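Some genes of the proteasome stood at very different levels in the 2 tables, which were normalized separately, so only large gaps are given, and these genes were chosen after their values were seen. In the authors' deposited tables the mean normalized count was 59.3 in spleen and 624 in bone marrow for Psmb5, 72.8 in spleen and 1344 in bone marrow for Psme2, an interferon-induced subunit of the PA28 activator, and 141 in spleen and 1094 in bone marrow for Psma3. For Psmb6 it was 713 in spleen and 774 in bone marrow, and for Psmb7 it was 581 in spleen and 646 in bone marrow. The pseudogene H2-K2 was at 2.13 in spleen and 65.5 in bone marrow in the authors' deposited tables. The cause was not tested.

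The wide errors of Tap2 and H2-T23 recurred in both tables, which share no library. The H2-T23 standard error lay at percentile 98.6 of genes of like level in spleen and at percentile 99.7 in bone marrow, and that of Tap2 at percentile 98.4 in spleen and 99.8 in bone marrow. In spleen, H2-T23 stood at 0.41 ± 0.481 in the authors' deposited table.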
